A study of Mus musculus with 2 samples.

Results

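The muscle myosin heavy and light chains are the 10 genes *Myh1*, *Myh2*, *Myh4*, *Myh7*, *Myh3*, *Myh8*, *Myl1*, *Mylpf*, *Myl2* and *Myl3*, which were chosen by name from the 19465 genes counted in spatial transcriptomics sections of the mouse femur. All 10 were found under their symbol, and each had unique molecular identifiers (UMIs, 1 per captured molecule) in both sections. The sections came from female bone cell reporter mice, in which an Ibsp promoter drives eGFP and an Acp5 promoter drives mCherry. The mice received a mid-diaphyseal femoral osteotomy under an external fixator at 12 weeks of age, and the femurs were explanted at 17 weeks of age, which was 5 weeks after surgery. From week 3 after surgery, the Control mouse received sham-loading and the Loaded mouse received individualized cyclic mechanical loading, with 3 sessions per week. There was 1 section per group, each from 1 animal, so the difference between the groups cannot be told apart from the difference between animals or between section planes. Accordingly, no test was run, and every interval is a 95% interval that covers counting error only.

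A muscle fiber contracts when myosin heavy chains, which are the motors of the thick filament, pull on actin. Each heavy chain carries an essential and a regulatory light chain. The heavy chain gene in use sets the fiber type: *Myh7* encodes the slow (type I) chain, *Myh2* the fast type IIa chain, *Myh1* the faster type IIx chain and *Myh4* the fastest type IIb chain. *Myh3* (embryonic) and *Myh8* (perinatal) are used in developing fibers and again in regenerating ones. *Myl1* and *Mylpf* encode the essential and regulatory light chains of fast fibers, whereas *Myl3* and *Myl2* encode their slow counterparts, which the heart ventricle also uses.

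The Control section held 1962 spots under tissue with 9002147 UMIs, and the Loaded section held 1436 spots with 4910716 UMIs. The median spot had 2190 UMIs (Control) and 2630 UMIs (Loaded). Spots lie 100 μm apart, and each can hold several cells. The study's own list of bone spots marked 131 Control spots with 557259 UMIs and 146 Loaded spots with 409020 UMIs. Muscle spots were defined without any myosin gene as spots outside the bone list in which 11 other muscle genes (such as *Acta1* and *Ckm*) took at least 5% of UMIs; there were 846 in the Control section and 683 in the Loaded section. The 2 sections shared 557 spot barcodes, which name positions on the slide and not cells.

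The heavy chain genes are close relatives, and the assay reads them through short probes, so their sequences decide how well they can be told apart. *Myh3*, *Myh2*, *Myh1*, *Myh4* and *Myh8* lie in this order on the plus strand of chromosome 11 (GRCm38, GENCODE M21), with *Myh2* at chr11:67171027-67197517, *Myh1* at chr11:67200052-67224575 and *Myh4* at chr11:67238029-67260446. *Myh7* lies on another chromosome, on the minus strand at chr14:54970684-54994626. The coding sequences of *Myh1* and *Myh4* were 90.2% identical, those of *Myh1* and *Myh2* 91.0%, and those of *Myh4* and *Myh7* 77.5%. Of the 5777 windows of 50 bases in *Myh1*, 635 occur unchanged in *Myh4* and 1185 in *Myh2*, whereas 7 of the 5768 windows of *Myh4* occur in *Myh7*. The position of the probes was not used here, so a part of the UMIs of the chromosome 11 chains could belong to a neighbor, and the size of that part is not known. The window of 50 bases in which the other chains differ most from *Myh4* in sum lies in exon 11 of *Myh4* (coding bases 1010 to 1059, chr11:67244598-67244647) and is printed to show what separates them, with capitals marking each base that differs from *Myh4*:

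Myh4: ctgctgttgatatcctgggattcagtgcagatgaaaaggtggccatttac
Myh1: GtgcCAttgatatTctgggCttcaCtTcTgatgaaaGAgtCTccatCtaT
Myh2: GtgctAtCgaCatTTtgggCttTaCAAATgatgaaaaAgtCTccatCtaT
Myh8: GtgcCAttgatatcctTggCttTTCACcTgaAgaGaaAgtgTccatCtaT
Myh3: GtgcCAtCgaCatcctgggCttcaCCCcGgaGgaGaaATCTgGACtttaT
Myh7: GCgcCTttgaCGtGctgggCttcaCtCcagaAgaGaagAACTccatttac

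In this window, *Myh1* differs from *Myh4* at 14 bases, *Myh7* at 16, *Myh8* at 17, *Myh2* at 18 and *Myh3* at 20. Over all 3865 *Myh4* windows that fall within 1 exon and align without gaps, the median number of differences is 4 for *Myh1*, 5 for *Myh2* and *Myh8*, 9 for *Myh3* and 11 for *Myh7*.

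Over all spots under tissue, the 10 genes took 9.23% of the UMIs of the Control section and 5.11% of those of the Loaded section. Levels are given as CPM, the UMIs of a gene in a region scaled to a total of 1000000 UMIs. *Myh4* was the most counted member in both: 53952 CPM in Control (interval 53801 to 54104) and 23684 in Loaded (23548 to 23820). *Mylpf* followed with 21595 CPM in Control and 10073 in Loaded. In the Control section, *Myl1* (9214 CPM), *Myh1* (5004), *Myh2* (1053) and *Myh7* (999.6) came next. In the Loaded section the order changed to *Myh1* (5240), *Myl1* (4503), *Myh7* (3996) and *Myh2* (2227), so that *Myh7* stood above *Myh2*. The slow light chains were lower, with *Myl3* at 194 and *Myl2* at 174 CPM in Control and 603 and 670 in Loaded. *Myh3* (51.3 and 48.9 CPM) and *Myh8* (28.8 and 45.2) were the least counted. The intervals of the neighbors *Myh2* (1032 to 1075) and *Myh7* (979 to 1021) did not meet in Control, whereas those of *Myh3* (42.9 to 55.5) and *Myh8* (39.5 to 51.6) did in Loaded. Because each probe can bind with its own efficiency, these values order the UMIs captured and not the amounts of transcript.

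Shares of the summed heavy chain UMIs do not depend on the depth of a section. *Myh4* held 88.3% of the heavy chain UMIs of the Control section (interval 88.2 to 88.4) and 67.2% of those of the Loaded section (67.0 to 67.4). *Myh1* held 8.19% and 14.9%, *Myh2* 1.72% and 6.32%, and *Myh7* 1.64% and 11.3%. The fast type IIb chain thus led both sections, with a share 21.1 percentage points lower in the Loaded section, while the slow chain's share was 9.70 points higher. The light chains followed their heavy chains: *Myl3* made up 2.06% of the essential pair (*Myl3* plus *Myl1*) in Control and 11.8% in Loaded, and *Myl2* made up 0.80% and 6.23% of the regulatory pair (*Myl2* plus *Mylpf*). *Myh3* and *Myh8* together stayed under 1% in both sections, at 0.0840% and 0.0471% in Control and 0.139% and 0.128% in Loaded.

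**Figure D1:**
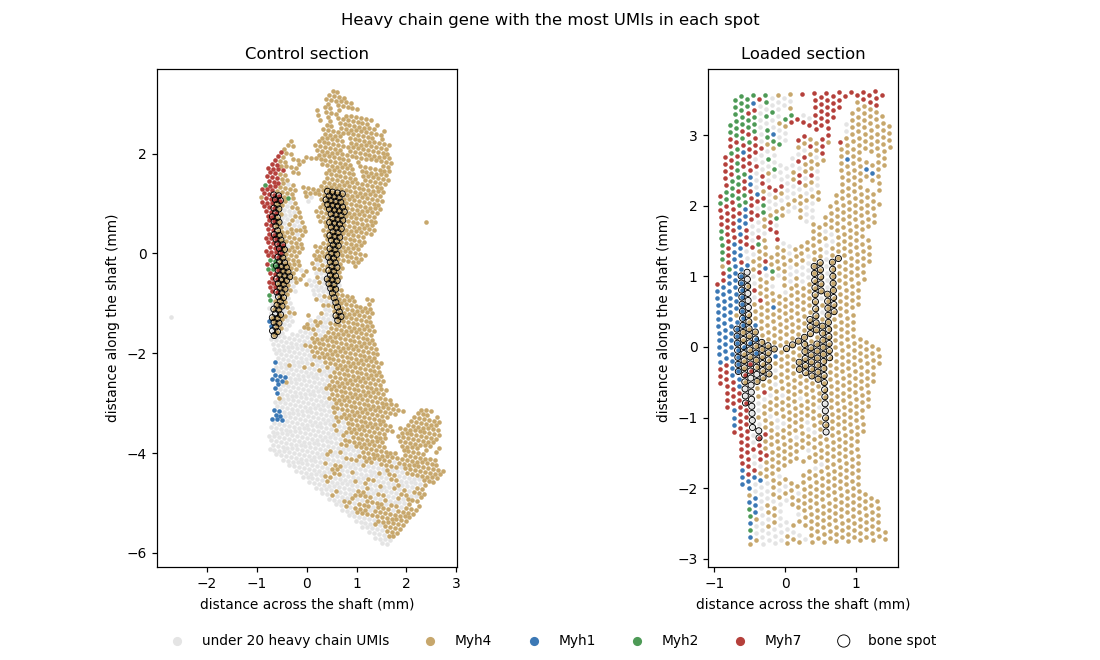
Map of the heavy chain gene with the most UMIs in each spot, by distance across and along the shaft (mm), for spots with at least 20 heavy chain UMIs (others grey); black rings are bone spots. Outside the side 1 bone, *Myh7* leads most spots in Control, and *Myh1* and *Myh7* lead most spots in Loaded. *Myh4* leads outside the side 2 bone of both sections.

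The map of the leading heavy chain, which is the one with the most UMIs in a spot, was read over spots with at least 20 heavy chain UMIs. *Myh4* led 1265 of 1373 such spots in Control (92.1%) and 872 of 1231 in Loaded (70.8%). *Myh7* led 78 and 185 spots, *Myh1* 20 and 108, and *Myh2* 10 and 66. Neither developmental chain led a spot: the highest share of a spot's heavy chain UMIs was 20% for *Myh3* and 11.5% for *Myh8*, both in Control. When each section was divided into 4 parts, the *Myh4* share lay between 44.7% and 97.0% in the Control parts and between 12.3% and 91.3% in the Loaded parts, so the section-wide shares depend on which areas are counted.

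The bone spots form a wall on either side of the marrow cavity, and the heavy chains in the spots outside the walls differed between the sides in each section. The sides are called 1 and 2 by the direction of an axis fitted to the bone spots of each section. This axis lay at 140 degrees in Control and at 2 degrees in Loaded, so the numbers do not mark the same slide position. Nothing in the labels says which anatomical side they are, or that side 1 of Control is the same as side 1 of Loaded. Outside the side 1 wall of the Control section (52 spots up to 10 steps of 100 μm from bone), *Myh7* held 54.3% of heavy chain UMIs (interval 52.8 to 55.8), *Myh2* 21.0%, *Myh4* 12.6%, *Myh1* 7.94% and *Myh3* 3.58%. Outside its side 2 wall (164 spots), *Myh4* held 89.7% and *Myh7* 0.718%. Outside the side 1 wall of the Loaded section (83 spots), *Myh1* held 55.6% (54.8 to 56.4), *Myh7* 24.6%, *Myh4* 13.6% and *Myh2* 5.29%. Outside its side 2 wall (147 spots), *Myh4* held 92.3% and *Myh7* 0.382%. Each section therefore had 1 flank poor in the type IIb chain and 1 flank in which that chain led every spot read (163 of 163 spots in Control and 147 of 147 in Loaded). The flanks reach unlike distances. Within 3 steps of bone lay all 52 flank 1 spots of Control and 82 of 83 in Loaded, against 87 of 164 and 99 of 147 in flank 2. In those flank 2 spots, *Myh4* held 91.7% in Control and 90.9% in Loaded. The flanks poor in *Myh4* differed from each other: *Myh7* led 38 of 48 spots in Control, whereas *Myh1* led 50 of 83 spots in Loaded and *Myh7* led 29.

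**Figure D2:**
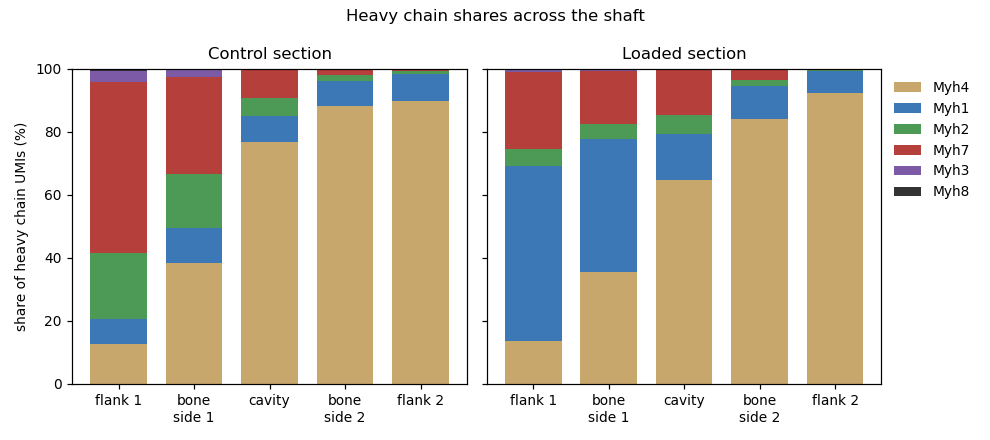
Share of each heavy chain in the heavy chain UMIs (%), as stacked bars, in 5 zones across the shaft of each section. *Myh4* rises from 12.6% (Control) and 13.6% (Loaded) in flank 1 to 89.7% and 92.3% in flank 2.

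As levels, *Myh4* stood at 1696 CPM in flank 1 and 69245 in flank 2 of the Control section, and at 3963 and 56512 in the Loaded section. *Myh7* stood at 7314 and 554 CPM in Control, and at 7156 and 234 in Loaded. *Myh7* was thus at about the same level in flank 1 of both sections. *Myh1* was the member whose order between the flanks turned: 1070 in flank 1 and 6594 in flank 2 of Control, against 16201 and 4223 in Loaded. The slow light chains went with *Myh7*. *Myl2* was 8.47-fold higher in flank 1 than in flank 2 of Control (interval of the log2 ratio 2.81 to 3.36) and 30.4-fold higher in Loaded (4.27 to 5.67). *Myl3* was 10.3-fold and 22.4-fold higher. *Mylpf* was lower in flank 1, at 3703 against 30629 CPM in Control and 6304 against 18978 in Loaded. *Myl1* was lower there as well, at 3557 against 12715 and 4156 against 8162. Summed over the 10 genes, flank 1 was poorer than flank 2 in both sections (2.27% against 12.1% of UMIs in Control, 4.11% against 8.84% in Loaded). The muscle reference genes moved alongside (3.64% against 12.1%, and 6.78% against 9.24%), and their part in the levels was not tested. Single reference genes did not move alike. In flanks 1 and 2 of Control, *Ckm* stood at 4947 and 47524 CPM, *Des* at 3527 and 4530, and *Actn2* at 1088 and 564. Their summed share is therefore not a neutral measure of muscle content. Fewer fibers in a spot and less RNA per fiber cannot be told apart. Osteoblast genes took 2.20% and 0.217% of UMIs in flanks 1 and 2 of Control, and 1.11% and 1.36% in Loaded. Most of these UMIs were of *Col1a1* and *Col1a2*, at 9195 and 12461 CPM in flank 1 of Control, against 7451 and 11711 in its bone spots. The other genes of the list were lower in that flank than in bone: *Bglap* (111 against 226), *Ibsp* (156 against 511), *Alpl* (39.0 against 43.1) and *Sp7* (3.00 against 23.3).

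The bases before the transcription starts of the chains that lead the flanks are shown because these chains led different flanks. The RefSeq start of *Myh4* lies upstream of the GENCODE start given above. That of *Myh1* lies downstream of its GENCODE start, so the *Myh1* window runs past the latter. The 200 bases before the RefSeq start (GRCm38.p6) are printed 5′ to 3′ on the strand of the gene, with matches on either strand to CANNTG (the E box), to TATAAA (the TATA box), to CATTCC (the MCAT box) and to the MEF2 and CArG boxes in capitals, for *Myh4* (chr11:67237612-67237811, plus strand), *Myh1* (chr11:67199902-67200101, plus strand) and *Myh7* (chr14:54994627-54994826, minus strand, 1 of 2 listed starts):

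Myh4: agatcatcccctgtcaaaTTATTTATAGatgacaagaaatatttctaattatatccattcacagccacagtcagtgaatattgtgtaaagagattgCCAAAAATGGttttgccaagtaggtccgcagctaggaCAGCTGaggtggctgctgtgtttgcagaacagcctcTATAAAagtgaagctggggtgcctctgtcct
Myh1: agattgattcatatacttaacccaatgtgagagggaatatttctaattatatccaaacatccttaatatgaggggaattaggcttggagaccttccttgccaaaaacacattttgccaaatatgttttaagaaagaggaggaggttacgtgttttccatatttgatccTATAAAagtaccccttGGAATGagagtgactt
Myh7: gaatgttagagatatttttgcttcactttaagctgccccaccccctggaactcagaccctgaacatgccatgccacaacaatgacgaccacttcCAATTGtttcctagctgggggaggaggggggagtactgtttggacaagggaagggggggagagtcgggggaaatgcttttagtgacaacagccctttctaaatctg

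The *Myh4* window holds 1 MEF2 box, which overlaps 1 of its 2 TATAAA matches, 1 CArG box and 1 CANNTG. The *Myh1* window holds 1 TATAAA and 1 CATTCC, both past the GENCODE start, and the *Myh7* window 1 CANNTG. The window before the other listed *Myh7* start, which is not printed, holds 2 CANNTG. Among the 32851 promoters listed, windows of this length hold CANNTG in 58.2%, CATTCC in 10.1%, TATAAA in 9.96%, a MEF2 box in 2.29% and a CArG box in 1.18%. These are matches of letters, and no binding was measured.

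Within muscle spots, the members other than *Myh1*, *Myh3* and *Myh8* fell into a fast and a slow set. Over the 846 Control and 683 Loaded muscle spots, the Pearson correlation of the log2 of depth-scaled UMIs plus 1 was 0.75 and 0.78 between *Myh7* and *Myl2*, 0.72 and 0.74 between *Myh7* and *Myl3*, and 0.70 and 0.72 between the slow light chains. *Myh4* correlated with *Mylpf* at 0.64 and 0.75 and with *Myl1* at 0.56 and 0.48. Between the sets the values were negative, with -0.51 and -0.74 for *Myh4* and *Myh7*. For the fast light chains they were weak in Control, with -0.13 and -0.37 for *Myl1* and *Myl2* and -0.17 and -0.66 for *Mylpf* and *Myh7*. *Myh2* went with the slow set (0.53 and 0.64 with *Myh7*) and against *Myh4* (-0.33 and -0.66). *Myh1* had 0.42 and 0.35 for *Mylpf*, 0.20 and 0.38 for *Myl1* and 0.21 and 0.22 for *Myh4*. Its values were lower for *Myh7* (0.06 and -0.24), *Myl2* (0.07 and -0.24) and *Myl3* (0.07 and -0.27). For *Myh2* they were 0.34 and -0.11. *Myh1* was thus nearer the fast set in Loaded, whereas in Control its value for *Myh2* was above those for *Myh4* and *Myl1*. Spots of a section share its library, and neighboring spots share tissue, so these values describe the sections only.

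The genes most like each heavy chain were sought among 2276 genes with at least 200 UMIs in the muscle spots of each section. For *Myh4* they were *Pvalb* (parvalbumin, the calcium buffer of fast fibers; 0.86 in Control and 0.95 in Loaded), *Mybpc2* (fast myosin binding protein C; 0.79 and 0.89) and *Actn3* (fast fiber α-actinin; 0.74 and 0.89). For *Myh7* they were the slow troponins *Tnni1* (0.82 and 0.85), *Tnnt1* (0.81 and 0.85) and *Tnnc1* (0.80 and 0.80). For *Myh2* they were *Mb* (myoglobin, the oxygen store of oxidative fibers; 0.65 and 0.65), *Myoz2* (0.62 and 0.65) and *Csrp3* (0.61 and 0.65). *Myh1* had weaker likenesses, led by the glycolytic enzyme genes *Eno3* (0.37 and 0.36) and *Pfkm* (0.41 and 0.31) and by *Casq1* (0.37 and 0.28), which encodes the calcium-binding protein of the sarcoplasmic reticulum. *Myh3* was nearest to *Tnni1* (0.37 and 0.24), *Tnnt1* (0.39 and 0.17) and the embryonic light chain gene *Myl4* (0.28 and 0.23). *Myh8* was nearest to *Myl4* (0.20 and 0.28), *Cilp* (0.17 and 0.26) and *Cdkn1a* (0.19 and 0.23), and correlations this low in sparse counts are no finding.

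Muscle spots were next ranked with no myosin gene, by the share of slow partner genes (such as *Tnnt1*, *Tnni1*, *Tnnc1* and *Atp2a2*, which encode slow troponins and the slow calcium pump) in slow plus fast partner UMIs (the latter including *Pvalb*, *Atp2a1*, *Tnnc2* and *Tnnt3*). The upper 10% began at a share of 3.15% in Control (85 spots) and of 37.4% in Loaded (69 spots), so the ranking picked far slower muscle in the Loaded section. In these spots *Myh7* reached 7278 CPM in Control, against 193 in the other muscle spots, and 21370 against 2592 in Loaded. *Myl2* was 15.6-fold and 7.36-fold higher there, and *Myl3* 14.9-fold and 4.15-fold. *Myh4* was lower, at 30626 against 72230 CPM in Control and 1281 against 39573 in Loaded. *Myh7* therefore held 15.1% of the heavy chain UMIs of the slow-partner-rich spots in Control, where *Myh4* still held 63.4%, and 74.1% in Loaded, where *Myh4* held 4.44%. *Myh2* was 4.08-fold higher in the slow-partner-rich spots of Control and 1.24-fold higher in those of Loaded. *Myh1* was 1.08-fold higher in Control, and in Loaded it stood at 2289 against 7854 CPM. *Myh3* was 9.34-fold and 4.28-fold higher in these spots. *Myh8* was 4.51-fold higher in Control and 1.01-fold in Loaded (interval of the log2 ratio -0.71 to 0.67).

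The developmental chains were sparse. *Myh3* was counted with 462 UMIs in 199 Control spots and 240 UMIs in 107 Loaded spots, and *Myh8* with 259 UMIs in 142 spots and 222 UMIs in 138 spots. Most of these spots held a single UMI (123, 80, 103 and 113 spots, respectively), while the 10 richest spots held 28.4% of the *Myh3* UMIs in Control and 49.2% in Loaded, up to 29 and 28 in 1 spot. At 1000 UMIs drawn from each spot, with 320 shallower Control spots and 81 Loaded spots left out, *Myh3* was found in 3.71% of spots in Control (interval 2.85 to 4.75) and 3.03% in Loaded (2.18 to 4.08). *Myh8* was found in 2.44% and 3.25%. Without thinning, these shares were 10.1% and 7.45% for *Myh3*, and 7.24% and 9.61% for *Myh8*. As a reference for background, the marrow cavity spots, whose tissue should lack both genes, gave 5.15% (2.5 to 9.28) for *Myh3* in Control and 2.12% (0.580 to 5.33) in Loaded after thinning, so the section-wide shares of spots with *Myh3* were not distinguishable from those of the cavity at this depth. By level, the cavity had 64.6 CPM in Control and 14.2 in Loaded, against 51.3 and 48.9 over all spots. The cavity gave 1.55% and 2.65% for *Myh8*. Their median depth was 1907 and 2574 UMIs, against 2190 and 2630 over all spots.

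*Myh3* was nonetheless uneven in place. In the Control section, 64.5% of its UMIs lay in the bone spots or within 3 steps of them, an area with 26.2% of the spots and 24.4% of all UMIs; in the Loaded section 56.7% lay there, with 42.1% of the spots and 42.7% of all UMIs. Of its UMIs, 161 lay in flank 1 and 75 in flank 2 of Control, and 99 and 7 in Loaded. After thinning, 15.4% of the flank 1 spots held it in Control (6.88 to 28.1) and 10.8% in Loaded (5.08 to 19.6), against 3.16% and 2.04% in flank 2. These intervals overlap those of the cavity, whereas the levels do not: *Myh3* stood at 482 CPM in flank 1 (411 to 563) and 64.6 in the cavity (41.8 to 95.4) of Control, and at 207 (168 to 252) and 14.2 (5.69 to 29.2) in Loaded. *Myh8* was uneven in other places: 31.7% and 41.9% of its UMIs lay in or near bone, while 1 of the 4 parts of the Control section held 85 of its 259 UMIs (247 CPM, against 5.20 to 27.1 in the other parts) and 1 of the Loaded section 102 of 222 (83.6 CPM, against 18.7 to 45.6). Spots with at least 2 UMIs of *Myh3* and *Myh8* together (111 in Control, 56 in Loaded) were set beside spots with none (1677 and 1219). The 9 regeneration genes counted, summed, were 7.18-fold higher per UMI in the former in Control (749 against 104 CPM) and 5.06-fold in Loaded (966 against 191). Among them, *Tnnt2* (embryonic and cardiac troponin T) was 11.4-fold and 8.83-fold higher, *Myl4* 6.98-fold and 6.52-fold, *Myog* (myogenin, which drives differentiation of muscle precursors) 5.33-fold and 5.05-fold, and *Chrna1* (a subunit of the muscle acetylcholine receptor) 8.87-fold and 2.70-fold. *Mymk*, *Mymx* and *Chrng* were also higher in both sections. *Ncam1* was 3.06-fold higher in Control and 1.15-fold in Loaded (interval of the log2 ratio -0.76 to 1.04). *Pax7* was 2.40-fold higher in Control (-0.15 to 2.53), whereas in Loaded it had 0 UMIs in the former spots and 20 in the latter. *Acta1*, the actin of adult muscle, was 1.05-fold and 1.09-fold higher. The former spots also had more *Myh7* (3.57-fold and 2.24-fold) and less *Myh4* (0.75-fold and 0.33-fold). The former spots were deeper, with a median of 7776 UMIs against 1933 in Control and 7216 against 2517 in Loaded; the values are per UMI, and the part of depth in them was not tested.

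**Figure D3:**
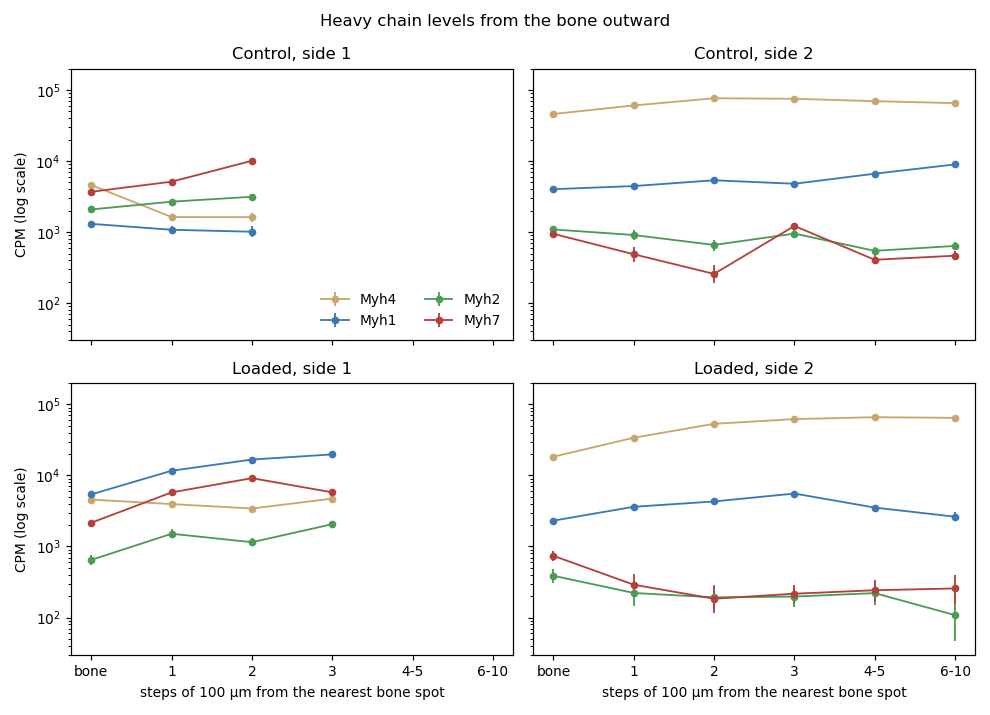
CPM (log scale) of 4 adult heavy chains in the bone spots of each side and in flank spots by steps of 100 µm from the nearest bone spot, with bars for 95% counting intervals; a bin needed 5 spots. On side 2 *Myh4* lies at 45916 in Control bone and at most at 76446 outside it (Loaded: 18312 and 65970).

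The members also reached the bone spots, although they encode proteins of the muscle fiber. They made up 4.89% of the UMIs of the Control bone spots and 2.49% of those of the Loaded bone spots, against 11.6% and 7.20% in muscle spots. In the bone spots, the 6 osteoblast genes (such as *Col1a1*, *Col1a2*, *Bglap* and *Ibsp*) took 2.0% of UMIs (Control) and 6.47% (Loaded). Over all spots they took 0.830% and 1.53%, and in the side 2 wall of Control 0.811%. The 3 osteoclast genes took 0.373% and 0.471%, against 0.139% and 0.187% over all spots. The 4 osteocyte genes (*Dmp1*, *Phex*, *Mepe* and *Sost*) took 0.0093% in Control bone, against 0.0106% over all Control spots. In Loaded they took 0.0797% and 0.0144%. *Myh4* was found in every bone spot of both sections. Of its level in muscle spots, 36.4% (interval 35.8 to 37.0) was reached in Control bone and 32.6% (31.7 to 33.6) in Loaded bone. For *Myh1* this was 42.7% and 55.5%, for *Mylpf* 34.6% and 30.7%, and for *Myl1* 62.4% and 46.1%. These percentages pool unlike walls. *Myh4* stood at 4598 CPM in the side 1 wall and 45916 in the side 2 wall of Control, against 68300 in its muscle spots. In Loaded it stood at 4566 and 18312 CPM, against 34187. *Myh2*, *Myh7*, *Myl2* and *Myl3* stood higher in bone spots than in the average muscle spot of the Control section, at 144%, 272%, 201% and 223%, and lower in Loaded, at 16.9%, 28.3%, 31.4% and 23.8%. *Myh3* reached 449% (347 to 577) in Control and 85.1% (47.3 to 143) in Loaded. Against muscle spots with at least 10% muscle reference UMIs, it reached 708% (533 to 938) in Control and 242% (123 to 460) in Loaded.

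For *Myh4*, *Myh7* and *Myh2*, the shares in the bone spots differed between the walls in the same direction as between the flanks. *Myh1* did so in Loaded only, since in Control it held 10.9% in the side 1 wall and 7.72% in the side 2 wall, against 7.94% and 8.54% in the flanks. In Control, *Myh7* held 30.8% of heavy chain UMIs in the side 1 wall and 1.82% in the side 2 wall, and *Myh2* held 17.4% and 2.09%. In Loaded, *Myh1* held 42.0% in the side 1 wall and 10.6% in the side 2 wall, and *Myh7* held 16.8% and 3.39%. *Myh4* held 38.3% and 88.2% in Control and 35.4% and 84.0% in Loaded. It led all 69 spots read in the side 2 wall of Control and all 72 in that of Loaded, while in the side 1 walls it led 41 of 60 and 30 of 54. The rest were led by *Myh7* (18 spots) and *Myh2* (1 spot) in Control, and by *Myh1* (19 spots) and *Myh7* (5 spots) in Loaded.

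Each wall was also set beside the flank spots within 3 steps outside it (the near flank), which are not all muscle spots. In the side 1 near flank of Control (52 spots), the muscle reference genes took 3.64% of UMIs, against 3.00% in the wall. On side 1 of Control, the bone spots had 50.5% of the *Myh7* level of the near flank (47.0 to 54.3) and 73.8% of its *Myh2* level. *Myh4* stood above the near flank, at 271% (245 to 300) of its level, as did *Myh1*, at 122% (105 to 142), and *Myl1* was at 101% (92.4 to 109). In the side 1 wall of Loaded, *Myh1* stood at 33.3% and *Myh7* at 30.1% of the near flank, and *Myh4* at 115% (106 to 124). On side 2, *Myh2* stood above its near flank, at 128% (111 to 148) in Control and 191% (139 to 263) in Loaded, and *Myh3* was at 221% (115 to 425) in Control. The slow genes stood higher as well: *Myh7* at 129% in Control and 325% in Loaded, and *Myl2* at 117% (79.9 to 169) and 717% (367 to 1508), while *Myh4* stood at 63.9% and 35.1%. Thus *Myh4* on side 1 and *Myh7* on side 2, each a minor chain of the near flank, stood above it in the wall. This did not hold for every scarce chain. On side 1, *Myh3* stood at 48.2% of the near flank in Control and *Myh2* at 42.4% in Loaded, and *Myh3* was lower in the Loaded wall as well.

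The spots between the walls, where marrow lies, held the members as well. They took 2.06% of the UMIs of 201 Control spots and 1.51% of those of 191 Loaded spots. Their heavy chain shares in Control (*Myh4* 76.8%, *Myh7* 8.82%, *Myh1* 8.24% and *Myh2* 5.56%) lay between those of the 2 walls. In Loaded they were 64.8%, 14.3%, 14.6% and 5.92%, of which the *Myh2* share was above those of both walls (5.03% and 1.78%). The *Myh4* level at 1, 2, 3 and 4 to 5 steps from bone was 13192, 10287, 7298 and 8914 CPM in Control. In Loaded it was 6854, 6283, 6387 and 7217. The muscle reference genes took 3.29% of UMIs at 1 step and 2.10% at 3 steps in Control, and 2.15% and 2.35% in Loaded. The source of these molecules was not tested.

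**Figure D4:**
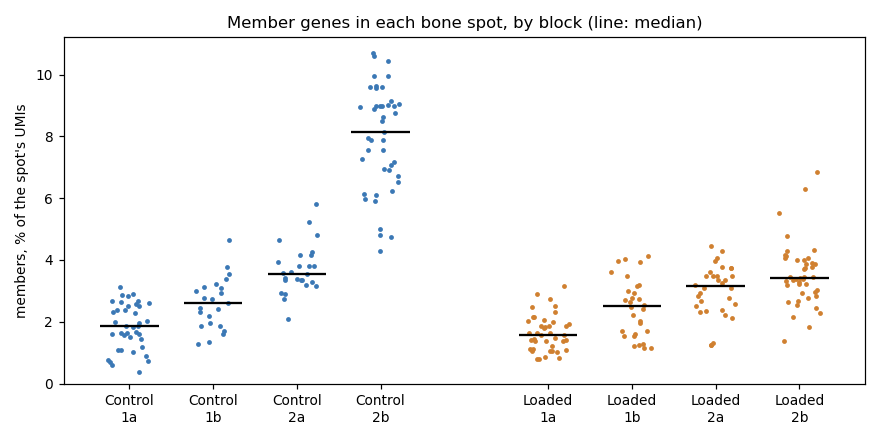
Percent of UMIs in the 10 genes in each bone spot (1 point each; line, median), by section and block, where 1 and 2 are the sides and a and b the ends. Control block 2b has a median of 8.14%, and the other blocks lie between 1.57% and 3.55%.

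For the comparison of Loaded over Control in bone spots, UMIs were summed over the region and divided by the summed scran size factors (154 for Control and 123 for Loaded), which gives normalized counts per average spot. The 10 genes together stood at 177 normalized counts in Control and 82.9 in Loaded (log2 ratio -1.09, interval -1.12 to -1.06). Of them, 9 were lower in Loaded and *Myh1* was higher, and 6 were at least 2-fold lower, where 9.81% of the 10003 genes with at least 10 UMIs were. None was at least 2-fold higher, where 10.6% of all genes were. The median log2 ratio was -1.16 over the members and 0.02 over all genes. *Myh4* stood at 89.9 and 37.2 normalized counts (log2 ratio -1.27, -1.32 to -1.23), *Myl1* at 25.2 and 9.43 (-1.42), *Mylpf* at 34.4 and 14.8 (-1.22) and *Myh2* at 5.77 and 1.74 (-1.73, -1.95 to -1.51). *Myh7* stood at 8.49 and 4.92 (-0.78), *Myl3* at 1.39 and 0.651 (-1.09) and *Myl2* at 1.23 and 0.928 (-0.40, -0.75 to -0.06). *Myh1* went the other way, at 9.54 and 13.1 (0.46, 0.35 to 0.56). *Myh3* was counted 87 times in Control bone and 16 times in Loaded bone (-2.12, -2.98 to -1.34), and *Myh8* 26 and 12 times (-0.79, -1.91 to 0.25).

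For most members, the blocks of the 2 bone regions overlapped. Each region was divided into 4 blocks, by side (1 or 2) and end (a or b). The 10 genes stood at 55.4, 82.1, 137 and 376 normalized counts in the Control blocks 1a, 1b, 2a and 2b, and at 48.2, 77.6, 95.7 and 121 in the Loaded blocks. Control block 2b alone, with 43 of 131 spots, held 72.3% of the member UMIs of Control bone. The muscle reference genes took at least 5.10% of UMIs in each of these 43 spots (median 8.82%). All of them thus pass the 5% cut for muscle spots and were kept out of that set only by the bone list. The median spot of this block had 8.14% of UMIs in the 10 genes, whereas the medians of the other 7 blocks lay between 1.57% and 3.55%. Single spots overlapped: those of Control block 2b ran from 4.29% to 10.7%, and others reached 6.84% in Loaded block 2b and 5.80% in Control block 2a. Without Control block 2b, the log2 ratio of the summed members was 0.16, that of *Myh4* 0.70 and that of *Mylpf* 0.13, all above 0. *Myh3* was the 1 member with every Loaded block below every Control block (0.03 to 0.23 against 0.29 to 0.82 normalized counts), which held for 2.68% of all genes. None stood higher in all Loaded blocks than in any Control block, which held for 3.68% of all genes. The remaining 9 members had overlapping blocks.

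The muscle content of the spots moved with the comparison. The muscle reference genes took 5.87% of the UMIs of the Control bone spots and 3.41% of those of the Loaded bone spots, and their share correlated with that of the members at 0.97 over the 131 Control spots and 0.80 over the 146 Loaded spots. Of the 11 reference genes, 10 were lower in Loaded bone (median log2 ratio -0.96), with *Acta1* at -1.17, *Ckm* at -0.84, *Ttn* at -0.94 and *Tpm2* at -0.23. All 8 fast partners were lower (median -1.19), 7 of them at least 2-fold. Of the 5 slow partners counted, 4 were lower (median -0.55), none by 2-fold, and *Atp2a2* was at 0.24. Of the 9 regeneration genes counted, 5 had at least 10 UMIs, of which 4 were lower and *Ncam1* was higher (1.33), with *Tnnt2* at -2.64 (86 and 11 UMIs) and *Myl4* at -1.18. Among 12 other myosin genes, of which *Myl4* is also a regeneration gene, 10 had at least 10 UMIs and all 10 had a log2 ratio below 0. The median over all genes tested was 0.02. *Myl12a* stood at -1.46 (-1.86 to -1.08), *Myl9* at -0.30 (-0.98 to 0.36) and the nonmuscle *Myh9* at -0.28 (-0.66 to 0.10). The intervals of *Myl9*, *Myh9*, *Myh7b*, *Myh10* and *Myh11* include 0. In the 25 Control and 31 Loaded bone spots in which the reference genes took under 2.5% of UMIs, the log2 ratio of the summed members was 0.06. All of these Control spots lay in the side 1 wall, since the lowest share in the Control side 2 wall was 2.68%. The Loaded spots came from both walls. The share that picked the spots moved with the members, so this ratio cannot decide the part of muscle content, which was not tested.

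The sides of the bone behaved unlike each other. In the side 1 walls, the summed members stood at 64.9 normalized counts in Control and 59.8 in Loaded (log2 ratio -0.12), *Myh4* at 14.7 in both, and *Myh1* at 4.18 and 17.4 (2.06, 1.89 to 2.23). In the side 2 walls, the summed members stood at 329 and 110 (-1.58), *Myh4* at 192 and 63.4 (-1.60) and *Myh1* at 16.8 and 7.99 (-1.07). With the sides paired by number, *Myh1* was thus higher in Loaded on side 1 and lower on side 2, and its flank levels had the same order on either side. The pairing of a Control side with a Loaded side is arbitrary. Paired the other way, *Myh1* stood at 16.8 in Control and 17.4 in Loaded, and at 4.18 and 7.99. The summed members then stood at 329 and 59.8, and at 64.9 and 110. *Myh2* (-1.68 and -1.77) and *Myh3* (-2.03 and -2.19) were lower on both sides, and in the other pairing as well. *Myh3* rested on few UMIs in Control and Loaded, with 66 and 12 on side 1 and 21 and 4 on side 2. Paired the other way, its nearest values were 0.321 in Control and 0.181 in Loaded, for which no interval was computed. *Myh7* was lower on both sides (-0.76 and -0.63). In the other pairing it stood at 3.96 in Control and 6.95 in Loaded, and at 11.8 and 2.56.

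**Figure D5:**
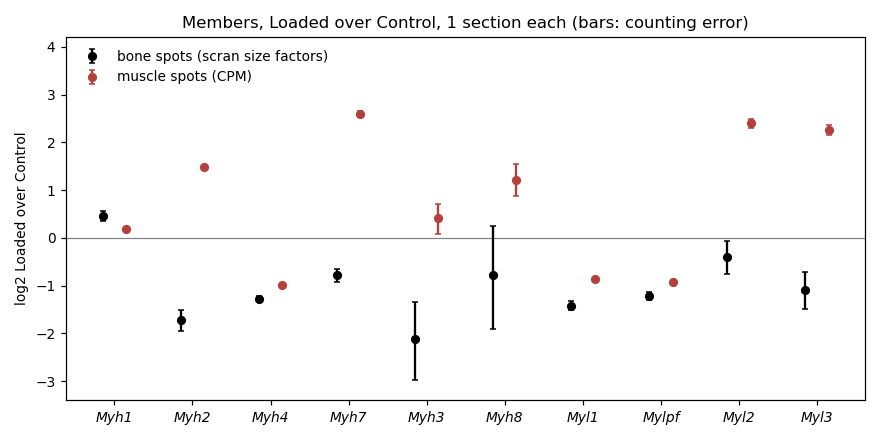
The log2 ratio of Loaded over Control for each member in bone spots (black, scran size factors) and in muscle spots (red, CPM), with 95% counting intervals, 1 section per group. *Myh2*, *Myh7*, *Myh3*, *Myh8*, *Myl2* and *Myl3* lie below 0 in bone spots and above 0 in muscle spots.

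In muscle spots, the slow members were higher in the Loaded section. *Myh7* stood at 862 CPM in Control and 5233 in Loaded (log2 ratio 2.60, 2.56 to 2.65), *Myl2* at 169 and 888 (2.40), *Myl3* at 172 and 823 (2.26) and *Myh2* at 1113 and 3096 (1.48). *Myh4* was lower, at 68300 and 34187 (-1.0), as were *Mylpf* at 27465 and 14450 (-0.93) and *Myl1* at 11184 and 6153 (-0.86). *Myh1* was close, at 6185 and 7071 (0.19). The slow partners went with the slow members, with *Tnnt1* at 2.66, *Tnni1* at 2.56, *Tnnc1* at 2.39 and *Atp2a2* at 2.26. The Control muscle spots were nearly all *Myh4*-led (777 of 817 spots read), whereas the Loaded muscle spots included 129 led by *Myh7*, 62 by *Myh1* and 43 by *Myh2*, of 654. The group and the muscles in view cannot be told apart.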

How the data were processed

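The authors sequenced Visium FFPE probe libraries of 2 femur sections and used Space Ranger (2.0.0 in the file headers) to count the UMIs of each gene in each spot. The deposited values are raw UMI counts without normalization; the processing notes name mm10. Bone spots came from the barcodes in the study's supplementary material. UMIs were summed over regions. Shares have exact binomial intervals, sums exact Poisson intervals and ratios exact conditional binomial intervals, all at the 95% level and covering counting error only. Depth was 9002147 (Control) and 4910716 (Loaded) UMIs. Size factors over the bone spots were computed with scran 1.30.0 in R 4.3.3, after the study's methods; its test on spots was not repeated, because spots are not replicates. Other steps used Python 3.11.15, numpy 2.4.6, scipy 1.17.1, pandas 2.3.3, Biopython 1.88 and matplotlib 3.10.9. All spots were kept; 64 Control spots and 5 Loaded spots fall below the study's filter of 500 UMIs and 250 genes.

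The shaft axis, the sides, the flanks (up to 10 steps outside the outermost bone spot within 2 steps along the shaft), the cavity and the blocks were set from the positions of bone spots alone, after the data were seen. The members and gene lists were chosen with earlier results of these data known. All members are named. Of each list, up to 4 genes with the most UMIs are named, and in places further genes, such as those that departed from them. For each heavy chain, the 3 most similar genes are named. The alternatives replaced the size factors by TMM factors (edgeR 4.0.16), by library totals or by totals that leave out muscle genes, or used equal weight of spots, spots with few muscle UMIs, other muscle thresholds, thinnings and minimums, and each block or part left out. The ratio of Loaded over Control in bone was tested on simulated Poisson counts of well-counted genes with known changes. Shares, maps, correlations, blocks and sparse genes were not tested in this way, and no spread between spots was simulated. Of the list genes, *Tpm3*, *Myod1*, *Actc1*, *Cdh15*, *Myh13*, *Myl6*, *Myl12b* and *Hba-a1* were not analysed here.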

Additional observations from a re-analysis of the deposited data

Results flagged for a closer look

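For 6 members, the log2 ratio of Loaded over Control was below 0 in bone spots and above 0 in muscle spots. The share of all genes with this pattern was not computed, so it is not known to be particular to the members. Genes outside the members had it too, such as *Tnnt1* (-0.55 and 2.66), *Tpm2* (-0.23 and 0.47) and *Myl12a* (-1.46 and 0.46). Others, such as *Acta1* (-1.17 and -0.13) and *Ckm* (-0.84 and -0.57), were below 0 in both. The difference between bone and muscle spots was not tested, since there is 1 section per group. *Myh7*, the slow chain, stood at -0.78 in bone spots and 2.60 in muscle spots, and its light chains *Myl2* (-0.40 and 2.40) and *Myl3* (-1.09 and 2.26) had the same pattern. *Myh2*, the type IIa chain, stood at -1.73 and 1.48. The developmental chains stood at -2.12 and 0.40 (*Myh3*) and at -0.79 and 1.22 (*Myh8*), with 87 and 16 UMIs of *Myh3* and 26 and 12 UMIs of *Myh8* in Control and Loaded bone. The *Myh3* direction in muscle spots depended on the cut. In spots with at least 10% muscle reference UMIs, *Myh3* was lower in Loaded (22.0 CPM in Control and 16.2 in Loaded). Over all spots its log2 ratio was -0.07 (-0.30 to 0.16). For *Myh8* in bone the interval of -1.91 to 0.25 includes 0. The *Myl2* ratio in bone ran from -0.76 to 0.29 with 1 block left out, and was above 0 with equal weight of spots.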

How the results depend on the processing

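The main limits are 1 section per group, sides that the labels do not name, and sparse counts of *Myh3* and *Myh8*. No paired analysis was possible because each group has 1 section and no result comes from a test. The log2 ratio of the summed members in bone (-1.09) was -0.97 with library totals and -0.70 with equal weight of spots. In spots with under 2.5% muscle reference UMIs, all on side 1 in Control, it was 0.062. In settings added after seeing the data, it was -0.12 on side 1 and -1.58 on side 2, where the pairing of the sides between sections is arbitrary. Leaving out 1 block at a time gave -1.58 to 0.16, the latter without Control block 2b. TMM factors (-1.10) and totals without muscle genes (-1.11) changed it little. The *Myh4* share difference over all spots (-21.1 points) was -21.4, -20.5 and -17.3 in muscle spots with at least 2.5%, 5% and 10% muscle reference UMIs and -21.9 with equal weight, and -40.6 to -10.8 with 1 part left out. That of *Myh7* (9.70) was 9.98, 9.41, 7.63 and 10.1, and 5.07 to 18.4. Over bone spots, the *Myh4* difference (-13.5) was -2.93 with equal weight and -25.5 to 14.2 with 1 block left out; that of *Myh7* (1.21) was -3.30, and -15.0 to 4.99. The extremes 14.2 and -15.0 arose without Control block 2b, and the cause was not tested.

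Single members turned direction in bone as follows. *Myh1* was at -1.07 on side 2 and at -0.041 to 1.53 with 1 block left out. *Myh4* was at 0.23 in spots with little muscle and at -1.86 to 0.70 with 1 block left out. *Mylpf* was at -1.70 to 0.13. *Myl2* was at 0.032 with equal weight, 0.80 in spots with little muscle, and -0.76 to 0.29. *Myh8* was at 0.12 with equal weight. The *Myh3* share difference over all spots turned to -9.0e-05 points in muscle spots at 10% and -0.073 with equal weight, and ran from -0.039 to 0.15 with 1 part left out. The *Myh8* share difference over bone spots turned to -0.21 with equal weight and ran from -0.29 to 0.10.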
